A study of Mus musculus with 12 samples.

Results

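The genes described are those of the proteasome: every gene in the count table whose symbol starts with Psma to Psmg followed by a digit, 50 of 24495 genes. One of the 50, Psmc3ip, matches by name only, because it encodes a meiotic recombination cofactor, which leaves 49 proteasome genes. Poly(A) RNA was sequenced from CCE-Nanog-GFP mouse embryonic stem cells (mESCs), a feeder-free line carrying a green fluorescent protein reporter for Nanog and sorted for GFP before the experiments. The cells carried either a scrambled short hairpin RNA (shSC) or a hairpin against cathepsin L (shCTSL), both delivered by lentivirus and selected with puromycin, and were collected undifferentiated (Day 0) or after 2 and 4 days as embryoid bodies in retinoic acid (RA) without leukemia inhibitory factor. Each of the 6 groups held 2 libraries, and only 1 knockdown line was sequenced. The paper calls the 2 libraries of a group biological replicates. The labels do not say whether they came from separate cultures, so p-values measure only the spread between them.

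The proteasome is the cell's main machine for degrading ubiquitin-tagged proteins. Its barrel-shaped core is built of outer rings of alpha subunits and inner rings of beta subunits, and among the beta subunits Psmb5, Psmb6 and Psmb7 carry the proteolytic sites. A cap of ATPases (Psmc genes) and non-ATPase subunits (Psmd genes) binds and unfolds substrates. In cells exposed to interferon, and constitutively in lymphoid cells, Psmb8, Psmb9 and Psmb10 take the places of Psmb5, Psmb6 and Psmb7 to form the immunoproteasome, which favours peptides suited to class I antigen presentation. Pluripotent cells are known for high proteasome activity.

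The genes sit on different chromosomes, with a few neighbours. In mm9 with the GENCODE M1 annotation, Psmb8 (chr17:34334666-34338399, plus strand) and Psmb9 (chr17:34318933-34324709, minus strand) flank Tap1 (chr17:34324498-34334170, plus strand), which encodes a subunit of the peptide transporter for class I molecules. The annotated starts of Psmb9 and Tap1 overlap, so reads there may be split between them if the counting ignored strand, a setting not given in the sources used here. Psmb10 lies on chr8:108459628-108462292, Psmb5 on chr14:55232644-55236851, Psmb6 on chr11:70338869-70341360 and Psmb7 on chr2:38443556-38499607, so the constitutive catalytic genes share no locus with the immunoproteasome genes that substitute for them. Psme2b (chr11:48758856-48759692), an 837 bp copy of Psme2, shares sequence with its parent, and the split of reads between them is uncertain.

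Promoter windows of 250 bases upstream of the transcription start were taken from RefSeq (GRCm38.p6), which held 42 of the 50 genes. They were searched on both strands for 4 motifs with known roles at such promoters. The antioxidant response element (TGACNNNGC), a site for the transcription factors that drive proteasome genes, was present in 12.2% of the proteasome genes with windows and in 11.5% of all genes. The gamma-activated site (TTCNNNGAA), a motif of interferon-responsive promoters, was present in 4.88% against 8.13%, and the interferon-stimulated response element in 7.32% against 3.46%. The matches of the latter were in the constitutive genes Psmb3, Psmd4 and Psmd9, and in no immunoproteasome or activator gene. The GC box (GGGCGG) was present in 53.7% against 35.4%. These shares describe the letters in the windows and were not tested.

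The windows below show, for 2 constitutive and 2 immunoproteasome genes, the bases that hold a match, in capitals, each written 5′ to 3′ on the strand of its gene. Psmb5 and Psmb6 carry the antioxidant response element, Psmb8 the gamma-activated site, and Psmb9 the GC box.
Psmb5 (chr14:54618009-54618068, minus strand): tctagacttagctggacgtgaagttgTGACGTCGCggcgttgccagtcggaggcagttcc
Psmb6 (chr11:70525297-70525356, plus strand): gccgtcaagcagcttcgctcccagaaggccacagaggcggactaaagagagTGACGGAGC
Psmb8 (chr17:34198072-34198131, plus strand): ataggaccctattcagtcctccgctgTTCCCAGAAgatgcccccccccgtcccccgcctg
Psmb9 (chr17:34187353-34187412, minus strand): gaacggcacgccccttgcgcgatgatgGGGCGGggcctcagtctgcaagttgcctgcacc

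Libraries held 11171111 to 27155553 counts. Ctsl, the targeted gene, was lower in both shCTSL libraries than in both shSC libraries on each day, with log2 differences of -1.89 at Day 0, -1.06 at Day 2 and -0.83 at Day 4 (edgeR quasi-likelihood test, Benjamini-Hochberg adjusted p = 0.00246, 0.0342 and 0.0896). The 7 pluripotency markers fell in all 4 comparisons with Day 0. The shCTSL Day 2 replicates stood apart from each other. The 49 proteasome genes and Psmc3ip took 1.01% of the counts of replicate 1 and 0.648% of those of replicate 2, and genes with less than 1500 bp of exon were higher in replicate 1 by a median of 0.63 on the log2 scale while those with more than 4000 bp had a median of -0.33.

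Most constitutive proteasome genes fell when the control line differentiated. All 34 genes of the standard particle (7 alpha, 7 beta, 6 ATPase and 14 non-ATPase) had lower CPM (counts per library scaled to a common size) in both Day 2 libraries than in both Day 0 libraries, and the same held at Day 4. The share of all genes separated between days in this way was not counted. This count, and the statements below on single genes separated between days, therefore have no background to be read against. Summed over the 34 genes, shSC libraries held 8941 and 9249 CPM at Day 0, 5313 and 5429 at Day 2, and 4997 and 5104 at Day 4. The median log2 fold change was -0.73 at Day 2 and -0.87 at Day 4, against 0.02 and 0.03 for all genes tested, and 23 of the 34 were called lower at Day 2 and 27 at Day 4 by the test described next. In bulk RNA, fewer cells of a type and less RNA per cell cannot be told apart.

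Genes were called changed where the edgeR quasi-likelihood test, adjusted over all 15532 genes tested, gave p under 0.05 and the change was at least 1.5-fold. Of the 49 proteasome genes, 48 passed the filter on low counts and could be tested. At Day 2, 30 of the 48 were called lower in shSC and 4 higher, while 25.3% of all genes were called lower and 29.3% higher. At Day 4, 36 were called lower and 1 higher, against 28.7% and 32.1%. From Day 2 to Day 4 none of the 34 genes of the standard particle was called in shSC by edgeR, and their median change was -0.05. In that interval 4 of the 48 were called, all lower, where 12.4% of all genes were called lower and 11.4% higher.

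These folds are relative to the bulk of the transcriptome. Scaled by total counts alone, without TMM factors, the median of all genes itself rose by 0.41 from Day 0 to Day 2 in shSC, the proteasome median was -0.32, and 10 proteasome genes were called lower and 5 higher (all genes, 14.2% and 40.2%). At Day 4 the medians were 0.35 and -0.54, and 17 proteasome genes were called lower and 4 higher (all genes, 20.2% and 40.2%).

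The shCTSL line showed lower levels as well, with wider spread. Summed CPM of the 34 genes was 9798 and 9223 at Day 0, 8592 in replicate 1 and 5049 in replicate 2 at Day 2, and 5480 and 6151 at Day 4. Replicate 1 at Day 2 thus lay near the Day 0 libraries and replicate 2 near the Day 4 libraries. At Day 2, 15 of 48 proteasome genes were called lower and 5 higher (all genes, 24.6% and 30.9%), and 38 were called in all once replicate 1 was left out (all genes, 56.5%). At Day 4, 29 were called lower and 3 higher (all genes, 27.6% and 32.3%), with a median over the 34 genes of -0.70 on the log2 scale. Leaving out shCTSL Day 4 replicate 1 brought the Day 4 calls from 32 to 19 (all genes, 53.8%). From Day 2 to Day 4, 3 were called lower (all genes, 12.4%, and 11% higher), and that count was 1 when Day 4 replicate 2 was left out (all genes, 16.6%). Dropping Day 2 replicate 2, which leaves replicate 1 alone at that day, gave 27 (all genes, 39.2%). Scaled by total counts, 8 were called lower and 5 higher at Day 2 (all genes, 15.3% and 40.1%), and 9 and 4 at Day 4 (17.8% and 42%).

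**Figure D1:**
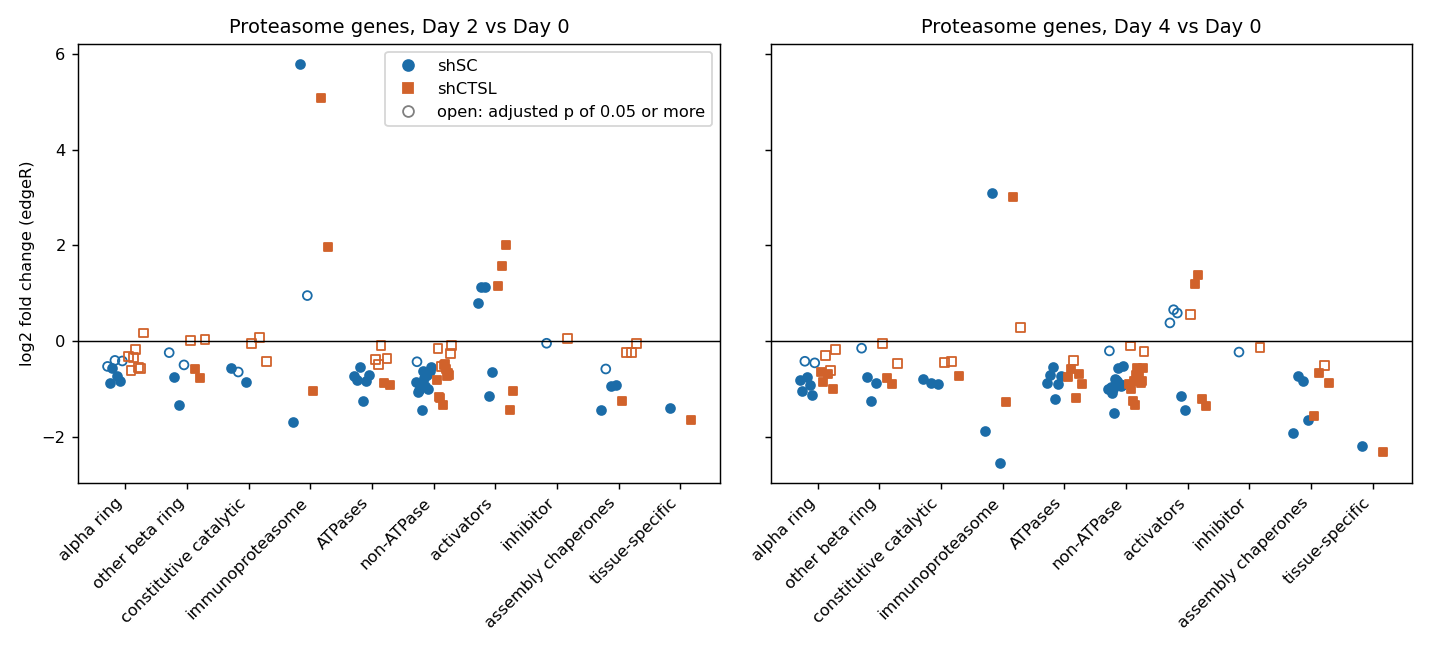
Log2 fold change of each tested proteasome gene against Day 0 (y axis, edgeR), by class (x axis), at Day 2 and Day 4; circles are shSC, squares shCTSL, and open symbols have an adjusted p of 0.05 or more. The alpha, beta, ATPase and non-ATPase genes of shSC all lie below 0, while Psmb8 lies at 5.79 and 5.08 at Day 2.

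Within the particle, the median log2 fold change of shSC at Day 2 was -0.81 for the 14 non-ATPase genes, -0.78 for the 6 ATPase genes, -0.57 for the 7 alpha genes and -0.64 for the 3 catalytic beta genes. Psmd14, the deubiquitinase of the lid that removes ubiquitin chains from substrates, had the lowest fold change of the 34 genes in shSC at both days. Its level was 269 and 267 CPM in the shSC Day 0 libraries, 96.7 and 101 at Day 2, and 89.7 and 100 at Day 4. In shCTSL it was 299 and 296 at Day 0, 149 and 85.8 at Day 2, and 116 and 121 at Day 4. In both lines every later library lay below every Day 0 library, and the log2 fold changes at Day 4 were -1.50 ± 0.20 (SE) in shSC and -1.33 ± 0.20 in shCTSL (edgeR, adjusted p = 9.2e-05 and 0.000218).

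Psmd11 and Psmd12, scaffold subunits of the lid, fell in both lines at both days. The log2 fold changes of Psmd12 were -1.03 and -1.08 in shSC and -1.18 and -1.25 in shCTSL at Days 2 and 4. Both were chosen after their values were seen. Of the 14 non-ATPase genes, 12 were called lower in shSC at Day 2 and 11 at Day 4. Of the 6 ATPase genes, which thread substrates into the barrel, 5 were called lower on each day, led by Psmc4 at -1.24 and -1.21. Psmb1, a structural beta subunit, changed least among the 34, with -0.24 at Day 2 and -0.15 at Day 4 in shSC (edgeR, adjusted p = 0.426 and 0.619). The alpha ring, which gates the barrel, had 3 of 7 genes called lower in shSC at Day 2 and 5 at Day 4.

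The constitutive catalytic subunits were lower on the later days in shSC. Psmb5, which carries the chymotrypsin-like site, was at 64.0 and 66.2 CPM at Day 0, 45.7 and 42.7 at Day 2, and 35.9 and 39.0 at Day 4. Psmb6, with the caspase-like site, was at 312 and 322, then 213 and 192, then 167 and 181. Psmb7, with the trypsin-like site, was at 325 and 379, then 194 and 195, then 185 and 194. The later libraries all lay below the Day 0 libraries for each of the 3 genes, and the share of all genes separated in this way was not counted. At Day 2 Psmb5 (-0.56) and Psmb7 (-0.86) passed the adjusted p threshold, and of these only Psmb7 also reached 1.5-fold. Psmb6 did not pass it (-0.64, edgeR adjusted p = 0.0521). Under some alternative settings Psmb5 no longer passed, and under some Psmb6 did. At Day 4 the log2 fold changes were -0.80 for Psmb5, -0.87 for Psmb6 and -0.90 for Psmb7 (edgeR, adjusted p = 0.00588, 0.0136 and 0.0126).

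In shCTSL the same genes varied mostly between the Day 2 replicates. Psmb5 was at 67.4 and 53.8 CPM at Day 0, 73.3 and 44.0 at Day 2, and 43.4 and 46.0 at Day 4. Psmb6 was at 354 and 274, then 446 and 221, then 219 and 247. Psmb7 was at 407 and 347, then 378 and 181, then 209 and 249. The Day 2 libraries spanned the Day 0 range for Psmb5 and Psmb6, and neither direction is given for those comparisons because it turned when 1 of the Day 2 libraries was left out. At Day 4, Psmb7 passed the threshold (-0.72, adjusted p = 0.0345, edgeR) and Psmb5 and Psmb6 did not (-0.44 and -0.43, adjusted p = 0.0803 and 0.168).

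Psmb8 was higher on the later days than at Day 0 in both lines, while Psmb5, the subunit it replaces, was lower on those days in shSC. Its raw counts were 0 and 2 in the shSC Day 0 libraries, 129 and 91 at Day 2, and 9 and 14 at Day 4. In shCTSL they were 4 and 0 at Day 0, 132 and 99 at Day 2, and 28 and 28 at Day 4. Psmb8 was thus near the detection floor in undifferentiated cells, highest at Day 2 in every library, and intermediate at Day 4.

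Taking the counts of both libraries together, the shSC Day 2 level was 60.8 times that of Day 0 (exact 95% interval 16.6 to 505), and the shCTSL level 33.3 times (12.8 to 123). These intervals cover counting error only. The fitted log2 changes were 5.79 and 5.08 (edgeR, adjusted p = 0.000122 and 0.000119), and they depend on the prior count because Day 0 is so low. From Day 2 to Day 4 Psmb8 fell, with log2 changes of -2.69 in shSC and -2.07 in shCTSL (edgeR, adjusted p = 0.00282 and 0.00557).

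Psmb9, whose counts were low throughout, also peaked at Day 2. The shSC libraries held 9 and 20 counts at Day 0, 44 and 55 at Day 2, and 2 and 4 at Day 4. The shCTSL libraries held 7 and 7, then 51 and 43, then 13 and 16. Both lines fell after Day 2, with log2 changes of -3.49 in shSC and -1.70 in shCTSL (edgeR, adjusted p = 0.00134 and 0.0134). The rise from Day 0 to Day 2 passed the threshold in shCTSL (1.97, adjusted p = 0.00546) and not in shSC (0.95, adjusted p = 0.0742), and the difference between the lines did not pass it either (1.02, adjusted p = 0.559, edgeR interaction term). At Day 4 Psmb9 lay below Day 0 in shSC (-2.54, adjusted p = 0.00684), and in shCTSL the change was 0.28 (adjusted p = 0.686); the test of the difference gave 2.82 (adjusted p = 0.638).

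Psmb10, the third immunoproteasome subunit, went the other way. It was at 48.9 and 50.4 CPM in the shSC Day 0 libraries, 15.4 and 15.5 at Day 2, and 11.2 and 16.2 at Day 4. In shCTSL it was at 56.6 and 45.6, then 34.8 and 15.3, then 18.2 and 23.96. All later libraries of both lines lay below Day 0, with log2 fold changes at Day 4 of -1.87 in shSC and -1.28 in shCTSL (edgeR, adjusted p = 0.000604 and 0.00556). The immunoproteasome genes therefore did not move as 1 group.

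**Figure D2:**
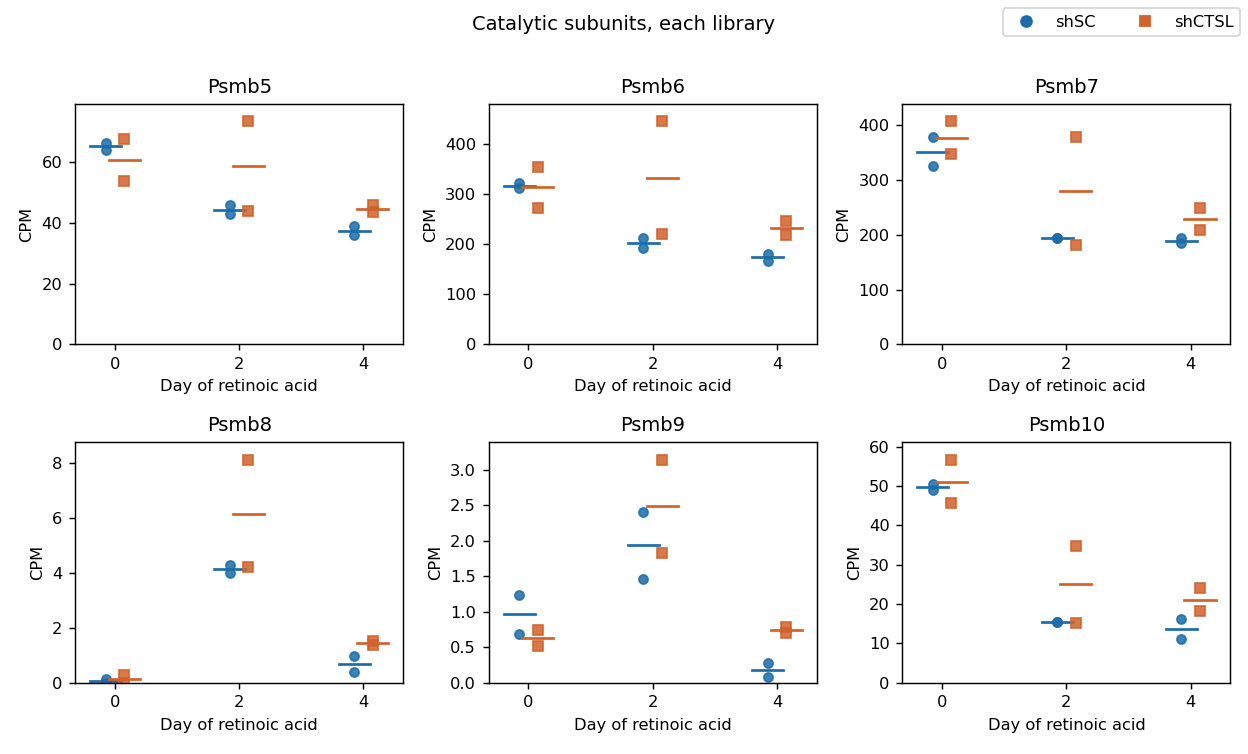
CPM (y axis, from 0) of the 3 constitutive and 3 immunoproteasome catalytic subunits in each library by day (x axis); points are libraries and bars the mean of 2. Psmb8 and Psmb9 peak at Day 2, and Psmb10 falls with Psmb5, Psmb6 and Psmb7.

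The ratio of each immunoproteasome subunit to its constitutive counterpart was compared within libraries, which removes library scaling. Psmb8 counts were 0% and 0.187% of Psmb5 counts in the shSC Day 0 libraries, 9.36% and 9.32% at Day 2, and 1.11% and 2.49% at Day 4. In shCTSL they were 0.442% and 0%, then 11.1% and 9.57%, then 3.49% and 2.998%. On the log2 scale with 0.5 added to each count, the later days exceeded Day 0 by 4.91, averaged over the lines (exact two-sided permutation test within line, p = 0.00444, the smallest it can give, and 0.0133 after Benjamini-Hochberg adjustment over the 6 ratio tests).

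Psmb10 moved the other way against Psmb7. Its counts were 15.0% and 13.3% of those of Psmb7 at Day 0 in shSC, 7.97% and 7.94% at Day 2, and 6.05% and 8.35% at Day 4. The corresponding values in shCTSL were 13.9% and 13.1%, then 9.19% and 8.43%, then 8.70% and 9.64%. The mean difference in log2 ratio of the later days from Day 0 was -0.75 (same exact test, p = 0.00444, adjusted p = 0.0133), so Psmb10 fell further than its counterpart. The ratio of Psmb9 to Psmb6 was 0.65 higher on the later days, which did not pass the exact permutation test (p = 0.422, adjusted p = 0.507), as Day 2 and Day 4 lay on different sides of Day 0 in shSC.

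None of the 3 ratios passed the threshold between the lines by the exact permutation test within day (smallest possible p = 0.00926). The mean differences of shCTSL from shSC were 0.66 for Psmb8 to Psmb5, 0.28 for Psmb9 to Psmb6 and 0.15 for Psmb10 to Psmb7 (adjusted p = 0.264, 0.602 and 0.264). With 5 added to each count in place of 0.5, the first became 0.49 with adjusted p = 0.0185. That difference therefore depends on how the near-empty Day 0 counts are handled.

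**Figure D3:**
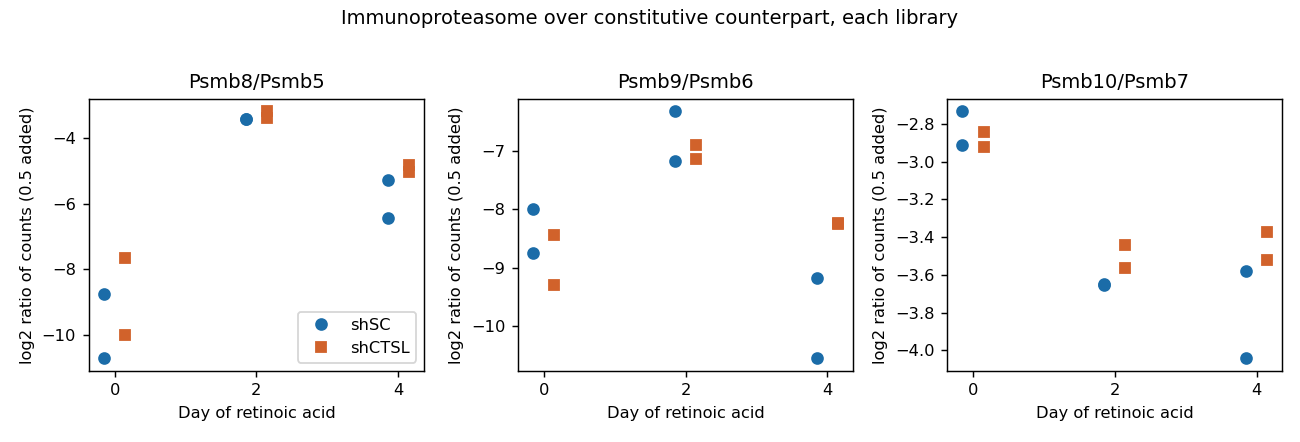
Log2 ratio of counts (y axis, 0.5 added) of each immunoproteasome subunit to the constitutive subunit it replaces, by day (x axis), with 1 point per library. Psmb8 over Psmb5 is above Day 0 in every later library, and Psmb10 over Psmb7 is below Day 0 in every later library.

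Divided by exonic length and summed, the 3 immunoproteasome genes amounted to 7.67% and 7.20% of the 3 constitutive genes at Day 0 in shSC, 4.37% and 4.61% at Day 2, and 3.202% and 4.41% at Day 4. In shCTSL the shares were 7.50% and 7.37%, then 4.96% and 4.47%, then 4.48% and 5.06%. Psmb10 dominated this sum, with 98.6% and 97.4% of the raw immunoproteasome counts in shSC at Day 0 and 72.9% and 70.7% at Day 2. Every later library of both lines had a lower share than the Day 0 libraries, a difference that was not tested, while Psmb8 rose at Day 2 in both lines. A geometric mean, which weights the 3 genes equally, gives the opposite sign for Day 4 against Day 0 (0.89 in place of -0.81 on the log2 scale).

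The activators, which dock on the ends of the barrel, split in the same way. Psme1 and Psme2 together form the interferon-inducible PA28 alpha-beta cap. Psme1 was at 60.6 and 56.4 CPM in shSC at Day 0, 97.3 and 107 at Day 2, and 74.1 and 78.2 at Day 4. In shCTSL it was at 65.8 and 64.8, then 192 and 99.6, then 86.9 and 106. All later libraries lay above Day 0, and the rise at Day 2 passed the threshold in both lines (0.80 and 1.16, edgeR adjusted p = 0.0149 and 0.00206).

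Psme2 went from 9.99 and 10.6 CPM at Day 0 to 22.6 and 22.4 at Day 2 and 15.8 and 16.7 at Day 4 in shSC. In shCTSL it went from 11.3 and 10.95 to 44.2 and 21.6, then 22.0 and 28.6. Its log2 fold changes at Day 2 were 1.13 and 1.56 (edgeR, adjusted p = 0.00549 and 0.000842), and the copy Psme2b gave 1.14 and 2.01. At Day 4 Psme2 was still above Day 0 past the threshold in shCTSL (1.19, adjusted p = 0.00411) and not in shSC (0.66, adjusted p = 0.0634).

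Psme3 encodes the nuclear PA28 gamma cap and Psme4 the nuclear activator PA200, and both fell. Psme3 was at 383 and 382 CPM in shSC at Day 0, 168 and 178 at Day 2, and 172 and 173 at Day 4. In shCTSL it was at 400.1 and 399, then 134 and 160.4, then 171 and 172. Every later library lay far below Day 0, with log2 fold changes at Day 2 of -1.14 in shSC and -1.44 in shCTSL (edgeR, adjusted p = 6.88e-06 and 1.52e-06).

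Psme4 fell in steps in shSC, from 479 and 442 CPM to 290 and 301, then 167 and 171. In shCTSL it was at 436 and 487, then 183 and 264, then 190.3 and 168. The step from Day 2 to Day 4 passed the threshold in shSC (-0.81, edgeR adjusted p = 0.00357), and in shCTSL it was -0.32 (adjusted p = 0.153).

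The shCTSL values at Day 2 were recomputed without either library of that day, which leaves the other alone. Without replicate 1 and without replicate 2, the log2 fold change from Day 0 was 4.59 and 5.49 for Psmb8, 1.61 and 2.35 for Psmb9, and -1.71 and -0.56 for Psmb10. It was 0.65 and 1.56 for Psme1, 1.0004 and 1.99 for Psme2, 1.52 and 2.40 for Psme2b, -1.27 and -1.58 for Psme3, and -0.76 and -1.33 for Psme4. It was -1.75 and -0.99 for Psmd14, and -1.70 and -0.86 for the chaperone Psmg1. All 10 genes kept their direction either way. No p-value is given for these fits, because a lone library shows no spread of its own and is assumed to vary like the others. From Day 2 to Day 4, the log2 change of Psme4 in shCTSL was -0.58 without replicate 1 and -0.03 without replicate 2.

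**Figure D4:**
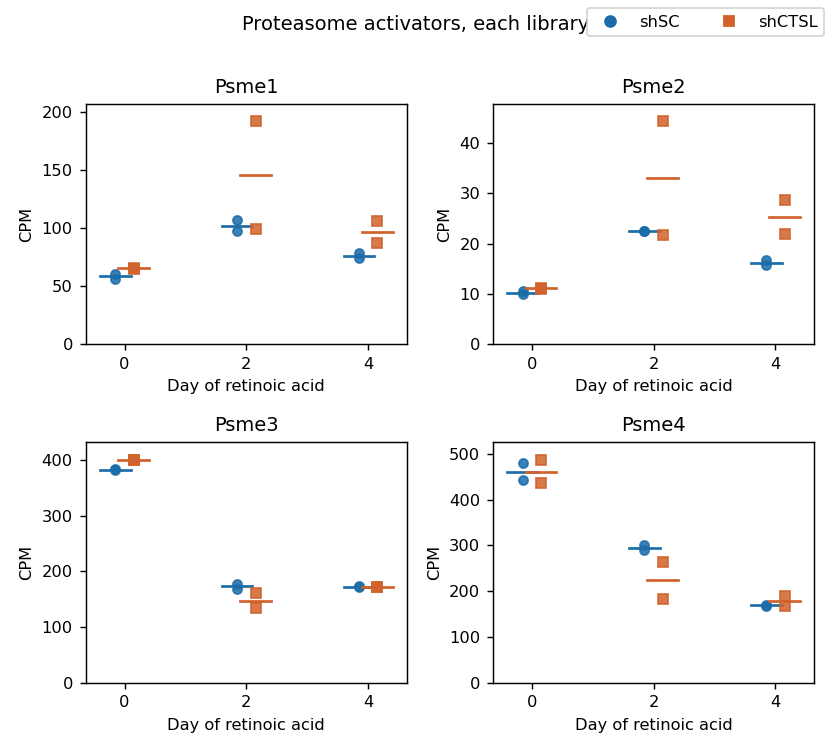
CPM (y axis, from 0) of 4 proteasome activator genes in each library by day (x axis); points are libraries and bars the mean of 2. Psme1 and Psme2 peak at Day 2, and Psme3 and Psme4 are below their Day 0 levels.

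The remaining regulators mostly followed the standard particle. Psmg1, a chaperone that helps assemble the alpha ring, fell in both lines, with log2 changes of -1.44 and -1.92 in shSC at Days 2 and 4, and of -1.24 and -1.55 in shCTSL (edgeR, adjusted p from 4.52e-05 to 0.000932). Of the 4 assembly chaperones, edgeR called all 4 lower in control cells by Day 4 and 3 in knockdown cells. Psmf1, the inhibitor PI31, stayed within 32.0 to 40.8 CPM in all 12 libraries, and none of its comparisons with Day 0 passed the threshold (edgeR).

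Psma8, the alpha subunit of the testis-specific particle, was expressed in the undifferentiated cells and had the lowest fold change of the proteasome genes in shCTSL at Day 4. It was at 42.2 and 40.3 CPM in shSC at Day 0, 15.2 and 16.3 at Day 2, and 8.71 and 9.50 at Day 4. In shCTSL it was at 36.4 and 41.5, then 13.1 and 11.8, then 7.74 and 7.77. The log2 fold changes at Day 4 were -2.18 and -2.33 (edgeR, adjusted p = 2.42e-07 and 1.86e-07). Psmb11, the thymus-specific catalytic subunit, had 0 to 7 counts per library and was not tested. Psmc3ip, no proteasome gene, had log2 changes of -1.06 (control) and -1.12 (knockdown) at Day 4 (edgeR, adjusted p = 0.0023 and 0.00166).

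Genes that work beside the proteasome were read from lists. Of 17 tested genes of class I presentation and interferon signalling, 12 were called higher and none lower in shSC at Day 2 (all genes, 29.3% and 25.3%), and 11 and 1 in shCTSL (all genes, 30.9% and 24.6%), with medians of 1.84 in both. Leaving out shCTSL Day 2 replicate 1 gave 11 higher and 2 lower in that line, and leaving out replicate 2 gave 11 and 1. Tap2, the partner of Tap1 in the peptide transporter, rose from 0.610 and 0.496 CPM to 9.46 and 9.81 in shSC. H2-K1, a class I heavy chain, rose from 11.8 and 12.8 to 82.3 and 79.7 CPM and was at 19.4 and 19.3 at Day 4, and Irf1, an interferon-induced transcription factor, rose by 1.45 and 1.80 on the log2 scale at Day 2 in the 2 lines.

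Leukocytes are rich in immunoproteasome. The summed level of 10 leukocyte markers was 38.5 to 39.5 CPM in shSC at Day 0 and 23.97 to 24.8 at Day 2, and 31.2 to 33.1 and 24.2 to 34.95 in shCTSL. Of 6 markers that could be tested, 1 was called higher and 2 lower in shSC at Day 2 (all genes, 29.3% and 25.3%). In shCTSL these counts were 1 and 3 (all genes, 30.9% and 24.6%). Cd74, which also serves class II presentation, rose at Day 2 (log2 changes of 1.73 and 2.50). Cd68 held 244 and 174 counts in the shSC Day 2 libraries and 111 and 169 in shCTSL. Coro1a held 165 and 141, and 152 and 138. Tyrobp had 0 counts, and Lyz2 at most 2, in every Day 2 library. Csf1r had 0 counts in every Day 0 library, and at Day 4 17 and 12 in shSC and 25 and 26 in shCTSL. The part of such cells in the Psmb8 level was not tested.

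Among 26 tested genes that associate with the proteasome or deliver substrates to it, edgeR called 11 lower and 1 higher in control cells after 2 days (all genes, 25.3% and 29.3%). Uchl5 and Usp14, the deubiquitinases bound to the cap, changed by -1.44 and -0.92 in shSC, and Pomp, the maturation factor of the core, by -1.03, all past the threshold. Zfand5, a proteasome-activating protein, rose by 1.06. Nfe2l1, the transcription factor that induces proteasome genes, changed by -0.25 (edgeR, adjusted p = 0.0438).

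Knockdown and control cells were compared within each day. No proteasome gene was called at any day, for the mean over days or for the line difference in the change from Day 0 (edgeR, and DESeq2 also called 0). At an unadjusted p under 0.05 (edgeR) there were, of 48 tested, 0 at Day 0, 12 at Day 2 and 3 at Day 4. There were 14 for the mean over days and 1 for the line difference at each later day. Of all 15532 genes tested, 1127, 3014 and 1897 reached this unadjusted threshold at Days 0, 2 and 4. It was reached by 3510 genes for the mean over days, and by 1716 and 1042 for the line differences. The share of all genes called (adjusted p and 1.5-fold) was 0.0386%, 0.0644% and 0.0129% at the 3 days. It was 0.27% for the mean over days, and 0% and 0.00644% for the line differences. The median log2 difference of shCTSL from shSC over the 34 constitutive genes was 0.08 at Day 0, 0.39 at Day 2 and 0.22 at Day 4.

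At Day 2 the difference rested on 1 library. Replicate 1 of shCTSL exceeded both shSC libraries for 33 of the 34 constitutive genes, while replicate 2 exceeded both for 6 and lay below both for 25. The share of all genes in these positions was not counted. The median log2 ratio of replicate 1 to replicate 2 was 0.83 over the tested proteasome genes with Psmc3ip, and 0.0001 over all genes tested. Without replicate 2, 32 proteasome genes were called higher and 1 lower (all genes, 15.2% and 16.5%), and without replicate 1 none were called. With offsets for exonic length, the Day 2 median over the 34 genes was 0.12 in place of 0.39, and the part of gene length in the difference was not tested.

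**Figure D5:**
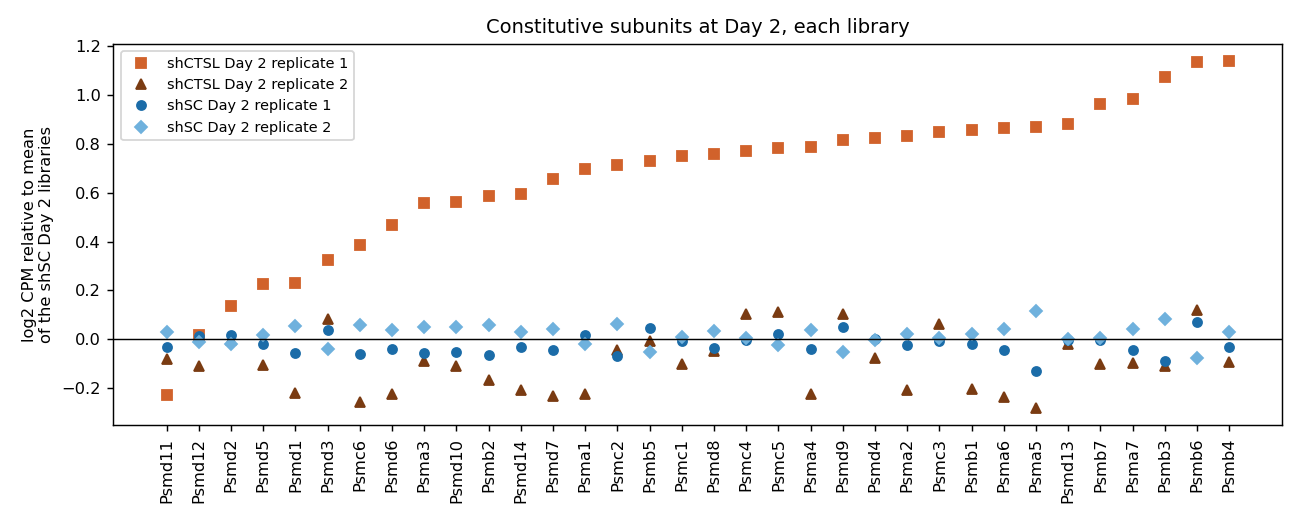
Log2 CPM of the 34 constitutive subunits in each Day 2 library relative to the mean of the shSC Day 2 libraries (y axis), genes ordered by shCTSL replicate 1 (x axis). Replicate 1 of shCTSL lies above both shSC libraries for 33 genes, and replicate 2 below both for 25.

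At Day 4, both shCTSL libraries lay above both shSC libraries for 35 of 48 proteasome genes and below for 1, where 30% of all genes lay above and 31.5% below. Psmb9 differed most, at 0.70 and 0.79 CPM in shCTSL and 0.09 and 0.28 in shSC (log2 difference 2.14, adjusted p = 0.307, edgeR). Without the shCTSL Day 2 libraries, whose spread enters the shared error, 25 of the 48 passed the adjusted threshold at Day 4, all higher in shCTSL (all genes, 11.5% higher), and 4 of them also reached 1.5-fold (all genes, 5.89%): Psmb9, Psmb10, Psme2 and Psme2b. Genes with less than 1500 bp of exon had a median difference of 0.25 at Day 4 and those with more than 4000 bp one of -0.14. The median exonic length was 2194.5 bp for the 50 genes matched by name and 3586 bp for all genes tested. Both medians lie between those bounds. With length offsets the Day 4 median over the 34 genes was 0.12 in place of 0.22. The part of gene length in the Day 4 difference was not tested.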

How the data were processed

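RNA-seq reads were aligned to mm9 with STAR 2.3.0e, filtered by mapping quality with SAMtools 0.1.19 and counted per RefSeq gene with featureCounts 1.6.2; the deposited values are raw counts, and replicates were not pooled. All 12 libraries were used, grouped by line and day. Genes were filtered with filterByExpr (minimum count 10), leaving 15532, and fitted in edgeR 4.0.16 with TMM scaling and a mean per group (quasi-likelihood test, 6 residual df, Benjamini-Hochberg over all genes). CPM were computed from the deposited counts with TMM-scaled library sizes. Values named per library follow a rule: catalytic, tissue-specific and activator subunits, regulators, and the 3 highest and 3 lowest changes per comparison; Psmd11, Psmd12, Psmc4 and Psmb1, and genes of other lists, were picked after their values were seen. Exonic lengths came from GENCODE M1. Scripts were tested on simulated data. Alternatives were DESeq2, RLE, limma-voom, other filters and cutoffs, length offsets, a replicate block, leaving out libraries and, added after seeing the data, total-count scaling and coding transcript lengths. The proteasome genes and lists were chosen with earlier results of these data known. Single-gene values of some list members are not reported here.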

Additional observations from a re-analysis of the deposited data

How the results depend on the processing

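The count of proteasome genes called was recomputed under each alternative. Shares of all genes called are given above for the main fit, total-count scaling and some fits with libraries left out. Elsewhere in this section a count without such a share has no background to be read against. Total-count scaling, chosen after seeing the data, gave 15 and 21 at Days 2 and 4 against Day 0 in shSC and 13 and 13 in shCTSL. A log2 cutoff of 1.5 gave 2 and 6 in shSC and 5 and 3 in shCTSL, and 2 for Day 4 against Day 2 in shSC. For shCTSL Day 4 against Day 2, no filter on low counts gave 6, voom weights 0 and the compared libraries alone 1. For shCTSL against shSC at Day 4, voom weights, the compared libraries alone and leaving out both shCTSL Day 2 libraries each gave 4. Under the last, 5.89% of all genes were called. That setting also gave 1 for the line difference at Day 4 (Psme2b), where 258 of all 15421 genes were called. Comparisons of shCTSL Day 2 without both its libraries have no value. With 1 library left out, a lone library is assumed to vary like the others, and the counts ranged from 25 to 36, 28 to 39 and 3 to 5 in shSC (Day 2 and Day 4 against Day 0, Day 4 against Day 2) and from 15 to 38, 19 to 33 and 1 to 27 in shCTSL. Between lines they were 0 at Day 0 and ranged from 0 to 33 at Day 2, 0 to 4 at Day 4, 0 to 4 over days, and 0 to 30 and 0 to 1 for the line differences at Days 2 and 4; 33 and 30, and the 4 over days, came without shCTSL Day 2 replicate 2, and the 4 at Day 4 without either library of that group.

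Log2 ratios with 1 library left out ranged for the later days from 4.32 to 5.50 (Psmb8 to Psmb5), 0.32 to 1.03 (Psmb9 to Psmb6) and -0.79 to -0.70 (Psmb10 to Psmb7), and between lines from 0.26 to 1.05, 0.05 to 0.51 and 0.07 to 0.23. With 5 added, the line difference of Psmb8 to Psmb5 was 0.49. The summed ratio ranged from -0.93 to -0.70, and was 0.89 as a geometric mean.

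Most single-gene results kept their side of the adjusted p threshold of 0.05 under the alternatives, but some lost or gained it. Losses in some settings included Psmg2 and Psmb7 in shCTSL at Day 4 and Psmb5 in shSC at Day 2. Gains included Psmb6 in shSC at Day 2, Psme1 at Day 4 in both lines and Psme2 at Day 4 in shSC. Some log2 fold changes of single genes, none of them called, turned sign, and the cause was not tested. Under total-count scaling, Psmf1 was 0.350 and 0.0989 in shSC at Days 2 and 4 and 0.244 in shCTSL at Day 4, and at Day 2 in shCTSL Psmb5 was 0.278, Psmg2 0.0852, Psmg3 0.0911 and Psmg4 0.287. Psmf1 in shSC at Day 2 was 0.00475 with RLE, 0.00957 with DESeq2, 0.0256 with the compared libraries alone and 0.00107 without both shCTSL Day 2 libraries. With length offsets, at Day 2 in shCTSL Psmf1 was -0.00471 and Psmb6 -0.134, and at Day 4 against Day 2 Psme3 was 0.0226 in shSC and Psmb10 0.0221 in shCTSL. Psmb6 at Day 2 in shCTSL was -0.00130 with voom weights. With 1 library left out, values at Day 2 in shCTSL ranged from -0.428 to 0.268 (Psmb5), -0.470 to 0.506 (Psmb6), -1.02 to 0.00650 (Psmb7), -0.797 to 0.184 (Psmg2), -0.816 to 0.202 (Psmg3) and -0.594 to 0.380 (Psmg4), the extremes falling without one or the other shCTSL Day 2 library. Psmf1 in shSC at Day 2 ranged from -0.0550 to 0.00112. At Day 4 against Day 2, ranges were -0.722 to 0.444 (Psmb10) and -0.806 to 0.206 (Psme2) in shCTSL, and -0.0459 to 0.0303 (Psme3) and -0.467 to 0.0636 (Psmb10) in shSC.

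The replicate numbers did not pair the samples: deviations of same-numbered libraries correlated from -0.47 to 0.26 over 15 pairs of groups, 2 of them over 0.1. With a replicate block, 34, 4 and 37 genes were called in shSC (Day 2 against Day 0, Day 4 against Day 2, Day 4 against Day 0), 22, 3 and 30 in shCTSL, and 0 between lines.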
